A study of Homo sapiens with 24 samples.

Results

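The comparison set MOLM14 cells treated with AZ2 for 24 h against MOLM14 cells treated with the vehicle DMSO, as 4 RNA-seq libraries in each group, which are 8 of the 24 libraries of the study. The members were the columns labelled AZ2 and DMSO of the MOLM14 table, described across all genes. MOLM14 is an established human acute myeloid leukaemia (AML) line of monocytic character with an internal tandem duplication in FLT3 and a rearranged KMT2A gene. AZ2 is known from published work as a selective inhibitor of the kinase PI3K gamma. The same table holds 4 libraries of MOLM14 cells given ARM165, the degrader molecule of the study's title, and a second table holds the same 3 treatments, each in 4 libraries, of the AML line OCI-AML2. The labels name no genetic modification in any group, and the groups of a line differ in the agent given. The doses, and whether the replicates came from separate cultures, are not given in the sources used here, so a p-value covers the variation among libraries and may reflect technical variation alone.

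PI3K gamma is the class IB phosphoinositide 3-kinase. Its catalytic subunit p110 gamma, encoded by PIK3CG, works with a regulatory subunit, p101 (PIK3R5) or p84 (PIK3R6), is switched on by G protein beta-gamma subunits and RAS, and makes the lipid PIP3, which recruits the AKT kinases to the membrane. AKT in turn keeps the FOXO transcription factors out of the nucleus and feeds mTORC1, which among other things promotes the SREBP-driven genes of sterol and fatty acid synthesis. The enzyme is mostly restricted to white blood cells and is known for its part in myeloid cell signalling. Blocking the kinase acts on the protein, so the messenger RNA of PIK3CG is not a check that AZ2 reached its target.

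Each value is a normalized estimated count per gene symbol. Each table was scaled separately, so levels are not set side by side between the lines. Of 35587 symbols, 15288 had at least 10 in at least 4 of the 12 MOLM14 libraries and were tested with limma on log2(value + 1), with Benjamini-Hochberg adjustment, and a gene was called changed at an adjusted p under 0.05. All log2 differences below are AZ2 minus DMSO on that scale, on which a low-level gene shows less than its full change. The AZ2 libraries held an estimated 36.1 to 38.7 M reads and the DMSO libraries 44.8 to 59.0 M, ranges that do not overlap (exact permutation test, two-sided, p = 0.0286, the smallest that 4 against 4 allows). The 12 markers of MOLM14 identity summed to 1361 to 1412 ppm of the library total in DMSO and 1320 to 1374 ppm in AZ2, led by FLT3, the receptor tyrosine kinase mutated in this line, at 24075 ± 581 and 23487 ± 929 (SD, n = 4). Markers of other cell types summed to less in both groups. The 11 erythroid and megakaryocyte markers summed to at most 1.52 ppm with PF4 at 0 in all 8 libraries. The 10 T and NK cell markers reached at most 16.5 ppm with CD2 and TRBC1 at 0. The B cell markers reached at most 15.6 ppm, and the epithelial and fibroblast markers 58.2 ppm. The highest of the markers of other cell types were KRT18 (1917 ± 136 in DMSO, 2042 ± 151 in AZ2), PAX5 (527 ± 67.9 and 534 ± 73.4) and NKG7 (504 ± 25.9 and 522 ± 42.6). KRT18 and PAX5 stood above the identity marker MEIS1 (means 507 in DMSO and 481 in AZ2), as did NKG7 in AZ2. Further identity markers were low: CSF1R (121 and 121), MPO (124 and 126), ITGAM (132 and 133) and CD14 (10.7 and 5.57). KRT18, PAX5, NKG7, KRT8 (239 and 234) and FN1 (189 and 181) all stood above these. In such bulk libraries a smaller share of cells with an mRNA and less of it per cell cannot be told apart.

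No gene was called changed with AZ2 in MOLM14: 0 of 15288 genes (0%) had an adjusted p under 0.05 by limma. At an unadjusted p under 0.05 there were 899 genes (5.88%), of which 320 were higher (2.09% of those tested) and 579 were lower (3.79%). The 4 AZ2 values lay wholly above the 4 DMSO values for 279 genes (1.82%) and wholly below them for 399 (2.61%). Over all genes tested the log2 difference was above 0 for 7715 and below 0 for 7566. Leaving out 1 library called 1 gene without AZ2 replicate 1 (PPARG), 3 without AZ2 replicate 3 (SYDE2, the pseudogene SLC2A3P1 and AC005832.4), 1 without DMSO replicate 4 (SYDE2) and 1 without ARM165 replicate 4 (AC145138.1), and 0 without any of the other 8. In the same fit, ARM165 against the same 4 DMSO libraries called 5427 genes higher (35.5%) and 5196 lower (34%). Both compounds were given for 24 h, but the doses are not given in the sources used here, so the counts stand side by side and are not a comparison of potency.

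Distances between libraries of the 2 groups were similar to those within a group. Over the 11036 genes with a mean value of at least 100, the median size of the log2 difference between pairs of DMSO libraries ran from 0.0821 to 0.0962, and between pairs of AZ2 libraries from 0.0892 to 0.113. Pairs of an AZ2 and a DMSO library differed by 0.0921 to 0.121, which overlaps both ranges. Pairs of an ARM165 and a DMSO library differed by 0.54 to 0.603.

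**Figure D1:**
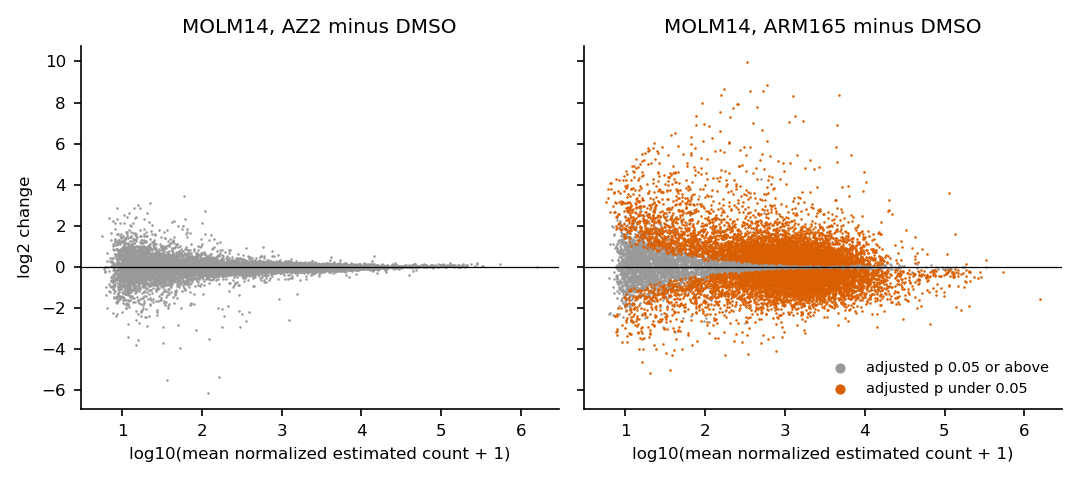
Log2 change in MOLM14 (vertical axis) against the log10 of the mean normalized estimated count + 1 (horizontal axis) for the 15288 genes tested, with AZ2 on the left and ARM165 on the right; each point is a gene, orange where the adjusted p was under 0.05. No point is orange for AZ2, and the cloud narrows as the level rises, while 10623 genes are orange for ARM165.

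The size of change that these libraries could have missed depended on the level of the gene. The standard error of the log2 difference had a median of 0.099, and for 10115 genes (66.2%) the whole 95% confidence interval lay within 0.5 of 0 in either direction, a change of less than 1.41-fold. That share was 99.1% for the 6069 genes with a mean value over 1000, 80.2% for the 4967 genes with a mean over 100 and up to 1000, and 2.8% for the 4252 genes with a mean up to 100. Changes of more than 0.5 in log2 size could therefore be bounded for nearly all of the abundant mRNAs and for few of the scarce ones. The middle 50% of the log2 differences lay between -0.089 and 0.074.

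Among the genes of the enzyme complex itself no difference passed the test. PIK3CG read 3143, 2896, 3227 and 3376 in DMSO replicates 1 to 4 and 2969, 2903, 3316 and 2641 in the AZ2 replicates. The groups overlapped, and the log2 difference was -0.10 ± 0.067 (SE; 95% interval -0.24 to 0.05; adjusted p = 0.917). PIK3R5 read 296, 335, 323 and 270 in DMSO and 283, 324, 333 and 266 in AZ2, with a difference of -0.023 ± 0.096 (adjusted p = 0.99). PIK3R6 gave the widest gap of the 3, with 196, 181, 214 and 261 in DMSO and 166, 192, 180 and 131 in AZ2. Its AZ2 replicate 2 lay above DMSO replicate 2, so the groups overlapped, and the difference of -0.35 ± 0.16 had an adjusted p of 0.839. With ARM165 the same 3 genes were called, PIK3CG at -0.52 ± 0.067, PIK3R6 at -0.64 ± 0.16 and PIK3R5 at 1.81 ± 0.096. With ARM165, 35.5% of all genes were called higher and 34% lower, so calls in so few genes do not set this complex apart.

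No gene of the kinases next to and below PI3K gamma was called. AKT1, the most abundant AKT kinase mRNA of the list in these libraries, averaged 5706 ± 285 in DMSO and 5688 ± 316 in AZ2 (SD, n = 4), a log2 difference of -0.0048 ± 0.063 with a 95% interval of -0.14 to 0.13. AKT2 averaged 2797 ± 110 and 2868 ± 64.9, a difference of 0.037 ± 0.048. Of the 10 genes listed for the AKT kinases, PDPK1 (the kinase that activates AKT at the membrane) and the PIP3 phosphatases, 0 had an unadjusted p under 0.05, the median difference was 0.006 and 9 had an interval within 0.5 of 0. Of the 6 genes for the other class I PI3K subunits, PIK3CB, which encodes p110 beta, was the member with the smallest p. It read 4147, 4206, 4297 and 4218 in DMSO and 4099, 3865, 3717 and 3904 in AZ2, so that every AZ2 library lay below every DMSO library, with a difference of -0.11 ± 0.041 and an adjusted p of 0.704. PIK3CD, encoding p110 delta, had the highest mean of that list and differed by -0.051 ± 0.054. Of 11 RAC, PAK and PREX genes, which carry PI3K signals to the cytoskeleton, the exchange factor TIAM1 alone had an unadjusted p under 0.05, at 324 ± 15.1 in DMSO and 272 ± 20.2 in AZ2 (adjusted p = 0.718).

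**Figure D2:**
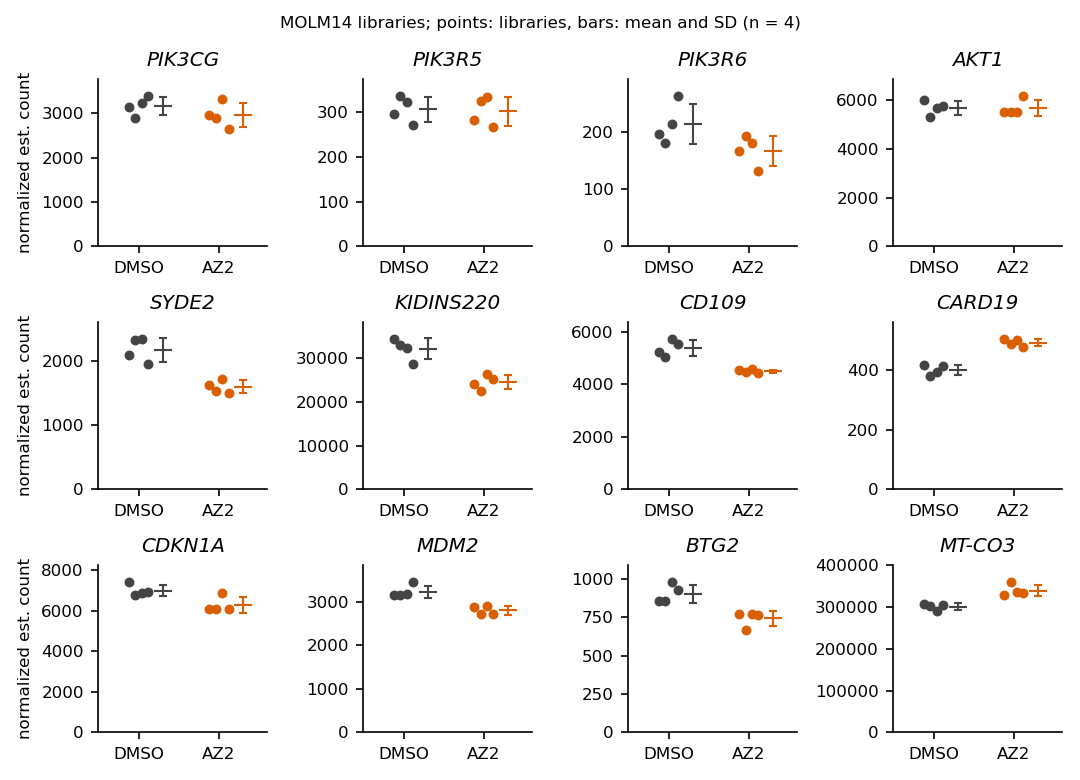
Normalized estimated counts (vertical axes, each starting at 0) of 12 genes in the 4 DMSO and 4 AZ2 libraries of MOLM14; points are libraries in replicate order from left to right, and bars are the mean with its SD. PIK3CG, PIK3R5, PIK3R6 and AKT1 overlap between the groups, while SYDE2, KIDINS220, CD109, MDM2 and BTG2 lie lower and CARD19 and MT-CO3 higher in all 4 AZ2 libraries. Separate groups were a condition for naming SYDE2, KIDINS220, CD109, CARD19 and MT-CO3. MDM2 and BTG2 were named after their values were seen.

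No gene of the FOXO, mTORC1 or ERK lists passed the test either. Of 20 tested FOXO factors and FOXO-induced genes, KLF2, a transcription factor of quiescent blood cells, alone had an unadjusted p under 0.05. It averaged 222 ± 44.6 in DMSO and 276 ± 32.3 in AZ2, the ranges overlapped, and the difference of 0.32 ± 0.14 had an adjusted p of 0.815. The median over the FOXO list was -0.018, beside 0.0013 over all genes tested, whereas with ARM165 14 of these 20 genes were called higher and 3 lower, beside 35.5% and 34% of all genes. Of 15 mTORC1 components and regulators, EIF4EBP1, which encodes a translation repressor phosphorylated by mTORC1, stood at 5383 ± 111 and 5914 ± 437 (log2 difference 0.13 ± 0.061, adjusted p = 0.839), and all 15 intervals lay within 0.5 of 0. Of 23 ERK feedback and immediate early genes, 1 was higher and 1 lower at an unadjusted p under 0.05. The lower was SPRED2, an inhibitor of RAS-ERK signalling, at 375 ± 23.2 and 325 ± 11 (adjusted p = 0.815). MYC, the most abundant gene of that list, read 27218, 26573, 29227 and 27070 in DMSO and 28788, 27944, 29686 and 27772 in AZ2, a difference of 0.053 ± 0.07.

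The gene with the smallest p in the whole comparison was SYDE2, which encodes a GTPase-activating protein. It read 2099, 2326, 2341 and 1958 in DMSO and 1629, 1533, 1732 and 1511 in AZ2. The log2 difference was -0.44 ± 0.066 (95% interval -0.58 to -0.30), with an adjusted p of 0.111. That adjusted p fell under the threshold without AZ2 replicate 3 (0.0312) and without DMSO replicate 4 (0.0406), and over the 24 alternatives it ran from 0.0312 to 0.657. With ARM165 its difference was 0.019 ± 0.066.

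KIDINS220, a membrane scaffold protein of neurotrophin receptor signalling, was the most abundant of the 10 lower genes of smallest p. It read 34335, 33178, 32399 and 28766 in DMSO and 24201, 22483, 26374 and 25382 in AZ2. The difference was -0.39 ± 0.066 (95% interval -0.53 to -0.24; adjusted p = 0.196). ARM165 gave 0.92 ± 0.066 for the same gene, on the other side of DMSO. In OCI-AML2 its AZ2 difference was 0.54 ± 0.39, so wide that the difference between the lines, -0.93 ± 0.44, did not pass the test (adjusted p = 0.939).

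The other 8 of the 10 lower genes of smallest p had log2 differences of modest size. CD109, a surface protein that binds TGF-beta, read 5220, 5031, 5700 and 5513 in DMSO and 4528, 4456, 4566 and 4440 in AZ2, a difference of -0.25 ± 0.052. MTR, the methionine synthase, averaged 5382 ± 112 and 4608 ± 187, a difference of -0.22 ± 0.044. TRIM22, an interferon-inducible antiviral protein, averaged 2700 ± 76.7 and 2346 ± 94.8. RALGAPA1, a subunit of the complex that switches off the RAL GTPases, averaged 401 ± 25.4 and 306 ± 27.1, a difference of -0.39 ± 0.082. The zinc finger gene ZNF592, the pseudogene ZNF252P, NCR3LG1 (the ligand of the natural killer cell receptor NKp30) and TP53INP1, described with the p53 targets below, completed the group. Separate groups were a condition for naming these 10 genes and the 10 higher ones, so the lack of overlap is not a result. The adjusted p of each of the 8 was 0.419.

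On the higher side the 10 genes of smallest p began with CARD19, a mitochondrial protein with a caspase recruitment domain. CARD19 read 417, 380, 396 and 415 in DMSO and 504, 488, 503 and 479 in AZ2, with a log2 difference of 0.30 ± 0.065 and an adjusted p of 0.419. CCDC61, a centrosomal protein, read 332, 414, 345 and 466 in DMSO and 609, 536, 543 and 498 in AZ2 (difference 0.50 ± 0.12, adjusted p = 0.426). ZFP36L1, which binds AU-rich elements and shortens the life of mRNAs, averaged 197 ± 11.7 and 250 ± 25.9, a difference of 0.34 ± 0.093, and stood at 2.99 ± 0.093 with ARM165. CHST12, a chondroitin sulfotransferase, averaged 2594 ± 90.6 and 3144 ± 210. The ubiquitin ligase RNF187 averaged 3770 ± 127 and 4373 ± 356, and the mitochondrial tRNA-modifying enzyme CDK5RAP1 1083 ± 54.8 and 1243 ± 44.8. The largest differences among the 10 came from scarce mRNAs. MTCP1 read 90.8, 54.1, 99.0 and 51.4 in DMSO and 117, 125, 195 and 151 in AZ2 (1.02 ± 0.27), and LCAT, the plasma enzyme that esterifies cholesterol, 42.4, 28.5, 33.4 and 46.5 against 66.3, 71.1, 107 and 59.1 (0.98 ± 0.28). MT-CO3 and MTCO1P12, a nuclear pseudogene of MT-CO1, were the remaining 2. The level of such a pseudogene is uncertain because reads from the mitochondrial gene MT-CO1 can be assigned to it. Apart from CARD19 and CCDC61, the adjusted p-value of each of the 10 was 0.599.

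The genes named for the largest log2 differences, chosen among those with a mean of at least 50 in a group and no overlap, were mostly read-through transcripts or scarce mRNAs, whose reads the estimation has to divide between overlapping genes or which rest on few reads. SPECC1L-ADORA2A, a read-through of 2 neighbouring genes, read 158, 123, 68.7 and 425 in DMSO and was listed at 24.0 in AZ2 replicate 1 and at 0 in the other AZ2 libraries, with an adjusted p of 0.502. TMEM189-UBE2V1, another read-through, read 250, 294, 294 and 358 in DMSO and 138, 163, 212 and 180 in AZ2 (difference -0.79 ± 0.22). SYNJ2BP-COX16, also a read-through symbol, averaged 136 ± 59.8 and 217 ± 19.1, and ASDURF, a short open reading frame upstream of ASNSD1, 191 ± 81.7 and 308 ± 26.3. These 4 symbols are uncertain as single genes. The remaining symbols chosen by size were SLC12A3 at 70.2 ± 9.31 and 122 ± 29.3, PDE6A at 73.2 ± 11.4 and 43.4 ± 15.6, SLFN12L at 52.4 ± 3.27 and 31.6 ± 6.59, and the pseudogene SHQ1P1 at 50.6 ± 13.8 and 29.6 ± 3.51, each with an adjusted p of at least 0.671.

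The p53 target genes were the list with the most members lower at an unadjusted p under 0.05. Of 24 listed genes 23 were tested, 19 had a difference below 0 and 4 above it, the median was -0.085 beside 0.0013 over all genes tested, and 6 had an unadjusted p under 0.05, all of them lower, against 3.79% of all genes; 0 were called. The 6 were TP53INP1, BTG2, MDM2, ZMAT3, CDKN1A and XPC, of which BTG2, MDM2, ZMAT3 and XPC were named after their values were seen. TP53INP1, a p53-induced regulator of cell death and autophagy, read 671, 652, 715 and 657 in DMSO and 525, 500, 581 and 588 in AZ2, a difference of -0.30 ± 0.064 without overlap (adjusted p = 0.419). MDM2, the ubiquitin ligase that degrades p53 and is induced by it, read 3150, 3156, 3176 and 3449 in DMSO and 2874, 2721, 2902 and 2726 in AZ2, a difference of -0.20 ± 0.048 (adjusted p = 0.426). BTG2, an antiproliferative gene, read 857, 856, 977 and 925 against 770, 666, 772 and 764, a difference of -0.28 ± 0.067. All 3 lay lower in each AZ2 library than in any DMSO library. For these 3 that is not a result. It was a condition for naming TP53INP1 among the lower genes of smallest p, and MDM2 and BTG2 were named after their values were seen. Over the whole list, 5 of the 23 genes tested lay lower in this way, beside 2.61% of all genes. CDKN1A, the cyclin-dependent kinase inhibitor p21, read 7382, 6767, 6880 and 6912 in DMSO and 6081, 6070, 6845 and 6061 in AZ2. Its AZ2 replicate 3 lay above DMSO replicate 2, so the groups overlapped, and the difference was -0.16 ± 0.051 (adjusted p = 0.675). ZMAT3, an RNA-binding p53 target, averaged 777 ± 54.3 and 658 ± 14.4, and XPC, a DNA damage recognition factor, 474 ± 46.7 and 409 ± 19.5.

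Summarised per library as the median log2 deviation of the 23 genes from their mean over the 8 libraries, the p53 list ran from 0.023 to 0.061 in DMSO and from -0.090 to -0.019 in AZ2, which do not overlap. Of the 32 lists, chosen with earlier results of these data known, the fatty acid, NF-kB and mitochondrially encoded lists were also apart. The p53 median stayed below 0 in all 24 alternatives, from -0.109 to -0.077. With ARM165, set against the same DMSO libraries, 21 of the 23 genes were called higher and 1 lower, beside 35.5% and 34% of all genes, with a median of 1.415: CDKN1A stood at 2.70 ± 0.051, TP53INP1 at 2.93 ± 0.064, BTG2 at 2.79 ± 0.067 and MDM2 at 1.77 ± 0.048. The small differences with AZ2 were therefore on the other side of DMSO from the large ones with ARM165. In OCI-AML2 the median over these 23 genes with AZ2 was -0.0042 and 0 of the 23 were called.

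**Figure D3:**
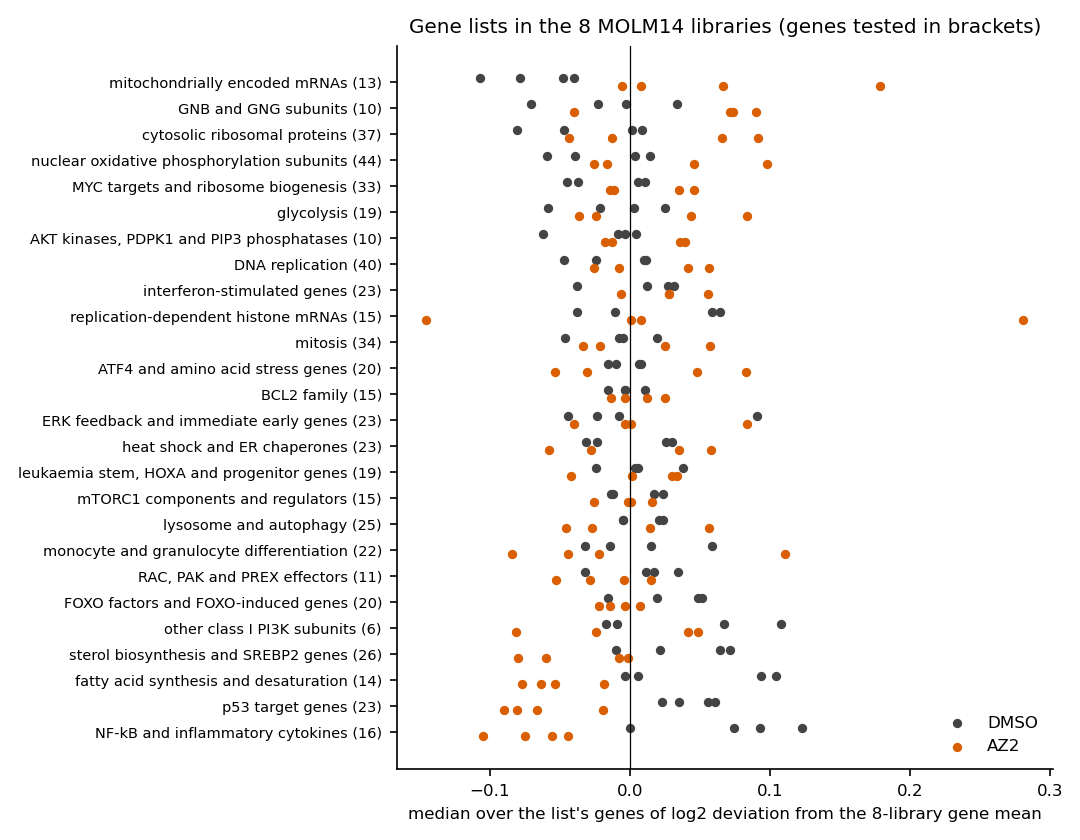
Median over each gene list of the log2 deviation from the gene's mean over the 8 MOLM14 libraries (horizontal axis), for lists with at least 5 genes tested (vertical axis, number of genes in brackets); each point is a library, DMSO in grey and AZ2 in orange. Most lists overlap near 0; the p53, fatty acid and NF-kB lists lie lower and the mitochondrially encoded mRNAs higher in all 4 AZ2 libraries than in the DMSO libraries.

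Of 22 listed genes of NF-kB and the inflammatory cytokines 16 were tested and 0 were called. The difference was below 0 for 13 of them, and the median was -0.099, which ran from -0.170 without DMSO replicate 3 and -0.162 without AZ2 replicate 2 to -0.058 without AZ2 replicate 1. Per library the list median ran from 0.00025 to 0.123 in DMSO and from -0.105 to -0.044 in AZ2. NFKB2, a subunit and target of the alternative NF-kB pathway, read 494, 423, 381 and 396 in DMSO and 356, 345, 373 and 318 in AZ2, without overlap, a difference of -0.28 ± 0.091 (adjusted p = 0.675). RELB, its partner subunit, averaged 92.3 ± 3.05 and 75.5 ± 5.59 (adjusted p = 0.815). NFKB2 and RELB were the 2 of the 16 genes with an unadjusted p under 0.05, both lower, beside 3.79% of all genes, and 9 of the 16 had an interval within 0.5 of 0. With ARM165, 13 of the 16 were called higher and 1 lower, beside 35.5% and 34% of all genes.

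No gene of sterol or fatty acid synthesis was called in MOLM14, and for 4 sterol genes the difference between the lines was called. Of 26 tested sterol and SREBP2 genes, 20 were below 0, the median was -0.066, 4 had an unadjusted p under 0.05, all lower, beside 3.79% of all genes; all 26 intervals lay within 0.5 of 0. With estimated depth as a covariate that median was -0.0026. The 4 were HMGCS1, CYP51A1, INSIG1 and STARD4. HMGCS1, the cytosolic HMG-CoA synthase that starts the pathway, read 1735, 1728, 1942 and 1828 in DMSO and 1591, 1599, 1610 and 1598 in AZ2, a difference of -0.18 ± 0.056 without overlap (95% interval -0.30 to -0.05; adjusted p = 0.675). CYP51A1, the lanosterol demethylase, averaged 2640 ± 81.8 and 2373 ± 134, and STARD4, a sterol carrier, 422 ± 33.6 and 362 ± 51.4. INSIG1, which holds the SREBP complex in the endoplasmic reticulum, read 3680, 3381, 3610 and 3733 in DMSO and 3395, 2971, 3482 and 3123 in AZ2, with overlap (-0.15 ± 0.058). Of 14 fatty acid genes, SCD, the stearoyl-CoA desaturase, read 63747, 61883, 68394 and 67214 in DMSO and 59416, 56084, 60651 and 60372 in AZ2, without overlap (-0.14 ± 0.049, adjusted p = 0.677). The carboxylase ACACA, which makes malonyl-CoA, averaged 638 ± 8.58 and 560 ± 17.4. The median over the fatty acid list was -0.078, and -0.046 without DMSO replicate 3.

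In OCI-AML2, 17 of 15377 genes were called with AZ2 (0.111%), 1 higher and 16 lower, and 10 of the 26 sterol genes were among them, with a list median of -0.403. Without AZ2 replicate 1, 2 or 3 or DMSO replicate 1 or 4 of OCI-AML2, the count of all genes called was 9 to 11. The difference between the lines was tested as an interaction on 14287 genes and called 4 (0.028%), all of them sterol genes, with 746 at an unadjusted p under 0.05. HMGCS1 differed by 0.66 ± 0.1 (MOLM14 minus OCI-AML2; adjusted p = 0.0174), from -0.83 ± 0.087 in OCI-AML2. INSIG1 differed by 0.49 ± 0.085 (adjusted p = 0.0388), from -0.64 ± 0.063 in OCI-AML2. IDI1, the isopentenyl diphosphate isomerase, differed by 0.53 ± 0.094 (adjusted p = 0.0388): it was 0.039 ± 0.061 in MOLM14 and -0.49 ± 0.07 in OCI-AML2. FDFT1, the squalene synthase, differed by 0.50 ± 0.092 (adjusted p = 0.048): it was 0.0013 ± 0.067 in MOLM14 and -0.50 ± 0.062 in OCI-AML2. In MOLM14, IDI1 read 2944, 3104, 3108 and 3194 in DMSO and 3362, 3006, 3129 and 3197 in AZ2, and FDFT1 3476, 3310, 3626 and 3502 against 3366, 3200, 3670 and 3711, so the groups overlapped for both. Over the 26 sterol genes the line difference had a median of 0.337. Over the 14 fatty acid genes it had a median of 0.081 and 0 were called, and the list's median in OCI-AML2 was -0.151 with 3 genes called.

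These 4 calls were sensitive to leaving out a library. The interaction called 0 genes without AZ2 replicate 3, DMSO replicate 1, DMSO replicate 2 or DMSO replicate 4 of MOLM14. The same held without AZ2 replicate 1, AZ2 replicate 3 or DMSO replicate 1 of OCI-AML2. In each of these fits HMGCS1 had the smallest p, with a limma adjusted p of 0.0502 to 0.0772. The count was up to 7 without DMSO replicate 3 of MOLM14. The interaction called HMGCS1 and PPARG without AZ2 replicate 1 of MOLM14, with the line difference of PPARG below 0. It called ACAT2 and HMGCS1 without AZ2 replicate 4 of MOLM14, and C6orf223 and HMGCS1 without DMSO replicate 2 of OCI-AML2. HMGCS1 alone was called without DMSO replicate 4, ARM165 replicate 1 or ARM165 replicate 3 of OCI-AML2. The immediate early gene EGR1, the 1 gene called higher with AZ2 in OCI-AML2 (0.52 ± 0.066), read 300, 360, 387 and 411 in MOLM14 DMSO and 289, 371, 423 and 376 in MOLM14 AZ2. Its MOLM14 difference was -0.0020 ± 0.21, and its difference between the lines did not pass the test (-0.52 ± 0.24, adjusted p = 0.935). Other genes called lower in OCI-AML2 had MOLM14 differences of -0.14 ± 0.075 for the sterol oxidase MSMO1 and -0.19 ± 0.16 for the fatty acid desaturase FADS2, and neither line difference was called (adjusted p = 0.372 and 0.64).

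**Figure D4:**
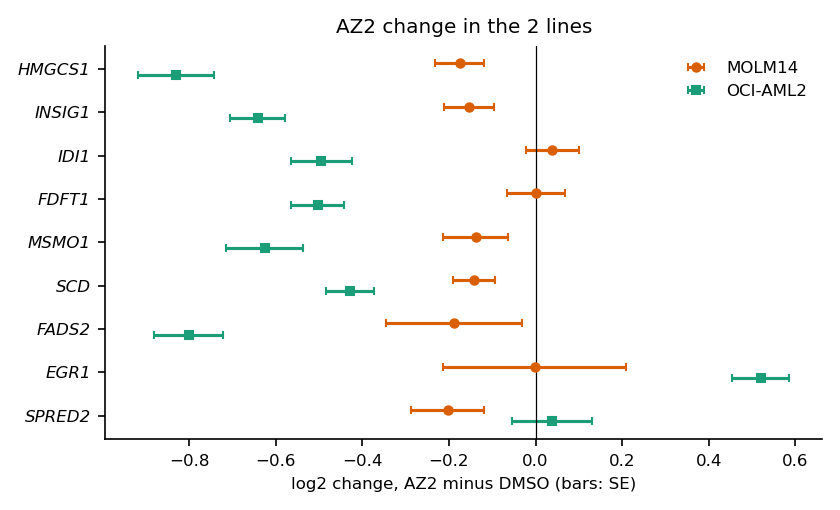
Log2 change with AZ2 against DMSO (horizontal axis) of 9 genes in MOLM14 (circles) and OCI-AML2 (squares), with the standard error as bars, each line fitted on its own table. HMGCS1, INSIG1, IDI1 and FDFT1 lie between -0.83 and -0.49 in OCI-AML2 and between -0.18 and 0.04 in MOLM14.

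The mitochondrially encoded mRNAs were the list with the most members higher at an unadjusted p under 0.05. All 13 were above 0, with a median of 0.146 that was 0.062 with estimated depth as a covariate, and 10 had an unadjusted p under 0.05, against 2.09% of all genes; 0 were called. These mRNAs are cut from 2 long transcripts of 1 genome, so the 13 are not independent of each other. MT-CO3, a core subunit of cytochrome c oxidase, read 308365, 301486, 290504 and 304516 in DMSO and 328923, 358961, 335721 and 332793 in AZ2, a difference of 0.17 ± 0.048 without overlap (adjusted p = 0.599). MT-CO1, the most abundant of them, read 559032, 552607, 546822 and 560107 in DMSO and 595890, 644564, 608398 and 596723 in AZ2 (0.14 ± 0.052), a difference that was 0 by quantile normalization, which gives genes of equal rank equal values. Both were higher in each AZ2 library than in any DMSO library, and 7 of the 13 genes were apart in this way, against 1.82% of all genes. For MT-CO3 itself the separation is not a result, since it was a condition for naming it among the higher genes of smallest p. As a share of the whole library the 13 mRNAs made up 5.29% ± 0.158 in DMSO and 5.73% ± 0.407 in AZ2 (SD, n = 4), a difference of 0.441 percentage points (exact permutation test, two-sided, p = 0.0571). AZ2 replicate 2 held the highest share at 6.32%, and without it the difference was 0.245 percentage points (exact permutation p = 0.0857), while without AZ2 replicate 1 it was 0.556 with an exact permutation p of 0.0286. In OCI-AML2 the same list had a median of 0.087 with AZ2, and with ARM165 in MOLM14 11 of the 13 were called lower and 1 higher, beside 34% and 35.5% of all genes.

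Nuclear genes of the same machinery lay slightly above 0. Of 44 nuclear oxidative phosphorylation subunits 40 were above 0, with a median of 0.050 (0.027 without AZ2 replicate 3 and 0.033 without DMSO replicate 2), and NDUFA2, a complex I subunit, was the 1 gene with an unadjusted p under 0.05, at 1714 ± 101 in DMSO and 1935 ± 78.4 in AZ2 (adjusted p = 0.815). All 44 intervals lay within 0.5 of 0. Of 37 cytosolic ribosomal proteins 35 were above 0, with a median of 0.061 that was -0.0010 after quantile normalization and 0.031 without AZ2 replicate 3, and RPL37 of the large subunit averaged 89456 ± 3912 and 97418 ± 3713 (adjusted p = 0.815). Both lists overlapped between the groups when summarised per library. Over all 15288 genes tested, 7715 were above 0. Both lists have short transcripts, with median lengths of 702.5 and 713 bases beside 1741 over all genes tested. In the shortest length class of all genes, described below, 41.2% were below 0. A part of length in these counts was not tested. In OCI-AML2 the nuclear list had a median of -0.064 with AZ2 and the ribosomal list 0.0055.

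Proliferation, metabolism and identity lists stayed near 0 in MOLM14 given AZ2. None of the 40 DNA replication genes and 1 of the 34 mitosis genes had an unadjusted p under 0.05, with medians of 0.028 and 0.017, and every interval of both lists lay within 0.5 of 0. MCM3, a subunit of the replicative helicase, averaged 31978 ± 691 and 32963 ± 673, and the spindle motor KIF11 averaged 20058 ± 490 and 19944 ± 972. With ARM165 all 40 and all 34 of these genes were called lower, against 34% of all genes, with medians of -1.379 and -1.260. Of 19 glycolysis genes the hexokinase HK2 alone had an unadjusted p under 0.05, at 6066 ± 138 and 5653 ± 187. Of 20 ATF4 and amino acid stress genes it was SLC7A11, the cystine transporter, at 2296 ± 75.7 and 2099 ± 87.1, while ATF4 itself averaged 50310 ± 1173 and 52575 ± 2800.

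Among 19 leukaemia stem, HOXA and progenitor genes 1 was higher and 2 lower at an unadjusted p under 0.05. The difference was above 0 for 8 of the 19 and below it for 11, with a median of -0.030. HOXA5, a homeobox gene of the KMT2A-driven program, averaged 552 ± 24.7 and 683 ± 34.4 without overlap (0.31 ± 0.12, adjusted p = 0.787), and HOXA9 averaged 2688 ± 75.8 and 2870 ± 97.6 with overlap. With estimated depth as a covariate HOXA5 was 0.038 and HOXA9 0.033. MYB, the most abundant gene of the list, averaged 29781 ± 563 and 29197 ± 1393, a difference of -0.030 ± 0.050. The 22 monocyte and granulocyte differentiation genes, the 23 interferon-stimulated genes and the 15 BCL2 family genes each had 0 members with an unadjusted p under 0.05. Among the scarce members of other lists, the histone gene HIST1H1C averaged 57.3 ± 15.7 and 80.8 ± 12.2, and HSPA1B, a heat shock gene nearly identical to a neighbouring copy and therefore uncertain, read 28.0, 31.4, 9.78 and 20.6 in DMSO and was listed at 0 in all AZ2 libraries but replicate 4, which read 17.0. The adhesion gene CDH1, one of the epithelial markers, read 14.1, 7.27, 27.9 and 22.1 in DMSO and 4.86, 4.65, 4.88 and 1.87 in AZ2 (adjusted p = 0.64), while the summed epithelial and fibroblast markers were 52.0 to 58.2 ppm in DMSO and 52.2 to 57.3 in AZ2.

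The median log2 difference was lower for genes with longer transcripts and higher for genes richer in G and C. Median transcript lengths from GENCODE release 29, matched by symbol, were at hand for 99.4% of the genes tested. The genes were split by length into 5 classes of equal size. From the shortest to the longest class the median log2 difference was 0.026, 0.021, 0.011, -0.0089 and -0.042, and in the longest class, from 3369 bases up, 232 genes were lower and 40 higher at an unadjusted p under 0.05, while in the shortest class 74 were lower and 91 higher. Per library, the longest minus the shortest class was -0.013, 0.050, 0.033 and 0.055 in DMSO replicates 1 to 4 and -0.034, -0.012, -0.079 and -0.018 in AZ2. DMSO replicate 1 lay within the AZ2 range, and the groups differed by -0.067 (exact permutation test, two-sided, p = 0.0571). In OCI-AML2 the same difference was -0.0016 (exact permutation p = 0.971). By GC content, in 5 classes from the lowest to the highest, the median log2 difference in MOLM14 was -0.021, -0.016, -0.0036, 0.014 and 0.033. In the lowest GC class 155 genes were lower and 41 higher at an unadjusted p under 0.05, and in the highest 50 were lower and 104 higher. The highest minus the lowest GC class differed between the groups by 0.055 (exact permutation p = 0.2). Length and GC content were not separated from each other.

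Of the 10 lower genes of smallest p, 8 had a median transcript length in the longest class, CD109 at 9221 bases and MTR at 10405 among them, and of the 10 higher ones, 0 did. With the length trend removed within each library, an alternative chosen after seeing the data, 0 genes were called and the unadjusted counts became 420 higher and 500 lower. The p53 list then had a median of -0.077 with 6 genes lower at an unadjusted p under 0.05, and the mitochondrially encoded mRNAs 0.137 with 9 higher. After the same removal the sterol list had a median of -0.053, the fatty acid list -0.076, the NF-kB list -0.106 and the nuclear oxidative phosphorylation list 0.037. SYDE2 was -0.39, KIDINS220 -0.35, CD109 -0.18, MTR -0.14 and ZNF592 -0.14, the last 2 from -0.22 and -0.21 without the removal. With estimated depth as a covariate SYDE2 was -0.44, KIDINS220 -0.51, MTR -0.24, ZNF592 -0.15 and the p53 median -0.082; depth and treatment cannot be told apart in these libraries.

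**Figure D5:**
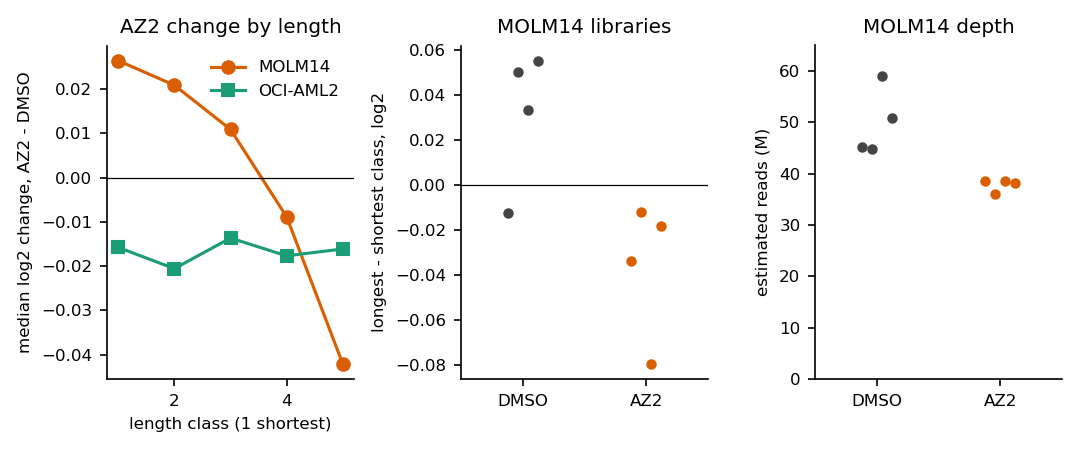
Left, median log2 change with AZ2 (vertical axis) by class of transcript length (horizontal axis, 1 shortest) in both lines; middle, the longest minus the shortest class in each MOLM14 library; right, estimated depth (M reads) of each MOLM14 library. The median falls from 0.026 to -0.042 in MOLM14 and stays between -0.021 and -0.014 in OCI-AML2, and all 4 AZ2 libraries are shallower than the DMSO libraries.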

How the data were processed

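RNA-seq was read from poly(A) RNA with a stranded library kit, per the labels' protocols. The deposited values carry the unit signal: normalized estimated counts per gene symbol, which the authors made with kallisto, per the submitters' processing notes. The kallisto version, genome build, annotation and scaling are not given in the sources used here. Dividing a library by its most frequent value above 0 gave whole numbers (within 0.01) for only 15.1% to 15.6% of MOLM14 values, so no count model was used. Dividing the library total by that value gave the estimated depth.

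Groups came from the sample titles. limma 3.58.1 (R 4.3.3) was fitted on log2(value + 1) of all 12 MOLM14 libraries with a variance trend (9 residual degrees of freedom), keeping genes that reached 10 in 4 or more libraries; the script was tested on simulated data. OCI-AML2 was fitted likewise, and the line difference on both tables together. Single values were compared by exact permutation of libraries. The members and the 32 gene lists were chosen with earlier results of these data known. Lists are described by counts and medians.

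Named genes were PIK3CG, PIK3R5, PIK3R6, AKT1 and AKT2; up to 10 per direction of smallest p with a mean of at least 50 in a group and no overlap, leaving out clone-style names; the 5 largest changes per direction under those conditions with an unadjusted p under 0.05; the smallest-p and highest-mean member of each list; and genes called in OCI-AML2 or in the line difference, up to 10. Genes named outside this rule, chosen after their values were seen, were the further list members with an unadjusted p under 0.05 and the genes called only when a library was left out. Alternatives were other pseudocounts (0.5 and 5), filters, scalings, weights, covariates and left-out libraries.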

Additional observations from a re-analysis of the deposited data

Results flagged for a closer look

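Of 142 groups of 4 libraries examined for 1 value far from the others, 12 had one; chance gives about 1 in 20. In the AZ2 libraries of MOLM14 a single high value stood apart for AKT1 (6163), CDKN1A (6845), HK2 (5933), SPECC1L-ADORA2A (24.0) and HSPA1B (17.0), and a single low value for PDE6A (20.0), BTG2 (666) and CDH1 (1.87). In the DMSO libraries a single low value stood apart for MTR (5216) and NCR3LG1 (5259), and a single high value for MDM2 (3449) and MSMO1 (1001). For MTR, NCR3LG1, MDM2, BTG2, PDE6A, CDH1 and SPECC1L-ADORA2A the 4 AZ2 values lay below the 4 DMSO values with these libraries included. For MTR, NCR3LG1, PDE6A and SPECC1L-ADORA2A this is not a result, since separate groups were a condition for naming them. MDM2 and BTG2 were named after their values were seen, and 2.61% of all genes lay wholly below DMSO.

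The AZ2 change differed between the lines for 4 genes by the interaction test, all with the MOLM14 change above the OCI-AML2 change: HMGCS1 by 0.66, IDI1 by 0.53, FDFT1 by 0.50 and INSIG1 by 0.49 in log2, with adjusted p-values from limma of 0.0174 to 0.048.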

How the results depend on the processing

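The count of genes called with AZ2 in MOLM14 was 0 in 19 of 24 alternatives; it was 1 with the AZ2 and DMSO libraries only (AC145138.1) and 0 to 3 when a library was left out, each exception named above. With the replicate number as a block it was 0, with 963 genes at an unadjusted p under 0.05. Same-numbered DMSO and AZ2 libraries had correlations of -0.240 to 0.160, and differently numbered ones of -0.195 to 0.218. So few pairs cannot show whether same-numbered libraries were made together. Under the block the OCI-AML2 count was 10 and the line difference 2. Leaving out a library gave 9 to 17 genes in OCI-AML2, 0 to 7 for the line difference, 10239 to 10610 for ARM165 and 0.245 to 0.556 percentage points for the mitochondrial share. With estimated depth as a covariate the unadjusted split was 699 higher and 441 lower, with a smallest adjusted p of 0.35, and the sterol median went from -0.066 to -0.0026, the mitochondrially encoded one from 0.146 to 0.062 and the nuclear oxidative phosphorylation one from 0.050 to 0.089; depth and treatment cannot be told apart in MOLM14, where the depths do not overlap. Of the 32 list medians, 22 moved by more than the spread between replicates in at least 1 alternative; the p53, NF-kB, sterol, fatty acid, mitochondrially encoded and nuclear oxidative phosphorylation medians kept their sign in all 24.

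Named genes near 0 changed sign. By quantile normalization PIK3R5 was 0.0052, FDFT1 -0.0019 and EGR1 0.017; by median of ratios AKT1 was 0.000886 and EGR1 0.00372; with array weights FDFT1 was -0.00282. With the depth covariate AKT1 was 0.050, EGR1 0.54, KIF11 0.049 and FLT3 0.026. With the length trend removed PIK3R5 was 0.010, AKT1 0.014, EGR1 0.023 and KIF11 0.036. With a library left out PIK3R5 ran from -0.080 to 0.036, AKT1 from -0.044 to 0.022, FDFT1 from -0.030 to 0.042, EGR1 from -0.093 to 0.105 and KIF11 from -0.040 to 0.015. The cause was not tested. MT-CO1 was 0 by quantile normalization. Of the 4252 genes with a mean up to 100, 2.8% had an interval within 0.5 of 0.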
